A study of Mus musculus with 2 samples.

Results

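The 36 genes described here encode the chains of the laminins and integrins in the mouse adrenal gland. They were found by gene symbol alone among the protein-coding entries of the transcript table, by the names Lama, Lamb or Lamc with a number, Itga with a number or with the letters of the lymphoid, vitronectin and leukocyte alpha chains, Itga2b, and Itgb with a single digit. They hold 5 laminin alpha, 3 laminin beta and 3 laminin gamma chains, 17 integrin alpha chains and 8 integrin beta chains, of 55536 annotated genes. The rule itself uses no measured value, though it was chosen with earlier results of these data known. The rule does not take Itgam, the alpha chain of a leukocyte integrin, which is given with the related genes.

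Adrenal glands came from male B6CASTF1/J mice, an F1 hybrid strain, aged 36 days. There was 1 group of 2 libraries, named here replicate 1 and replicate 2 after the labels, each made from 300 ng of total RNA with ERCC spike-in RNA added. No treatment, engineered allele or control group was named, so the data give a profile of levels and the spread between these libraries. By the biosample labels the glands came from separate animals, and by the library labels from a single animal, so differences between these libraries may be technical. The p-values of the exact binomial test weigh such a difference against counting error only.

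Laminins are trimers of an alpha, a beta and a gamma chain and form the first network of a basement membrane, onto which type IV collagen, nidogens and perlecan assemble. Integrins are dimers of an alpha and a beta chain that span the cell membrane and tie this matrix to the actin cytoskeleton. The alpha chain largely sets the ligand: alpha3, alpha6 and alpha7 bind laminins, alpha1, alpha2, alpha10 and alpha11 bind collagens, and alpha5, alpha8, alphav and alphaIIb bind proteins with an Arg-Gly-Asp site such as fibronectin and vitronectin. The adrenal cortex has a dense bed of sinusoidal capillaries, and basement membranes surround both the steroid-producing cells and the vessels.

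The sequences shown first are those of the alternative coding exons by which 2 laminin receptors, alpha6 and alpha7, differ between their annotated forms, because the form, and not only the gene, sets what the chain carries. Itga6 (ENSMUSG00000027111.15) lies on chr2:71745616-71858416, plus strand, of mm10. Its form Itga6-201 uses the coding part of exon 25, at chr2:71853534-71853638, and Itga6-202 uses exon 26, at chr2:71855854-71856012. These exons encode the alternative cytoplasmic tails known as alpha6A and alpha6B, of 35 and 53 codons here. Capitals mark the codons of the membrane-proximal GFFKR motif found in nearly all integrin alpha chains.
Itga6-201: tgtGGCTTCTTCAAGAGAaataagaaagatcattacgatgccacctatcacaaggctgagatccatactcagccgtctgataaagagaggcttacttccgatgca
Itga6-202: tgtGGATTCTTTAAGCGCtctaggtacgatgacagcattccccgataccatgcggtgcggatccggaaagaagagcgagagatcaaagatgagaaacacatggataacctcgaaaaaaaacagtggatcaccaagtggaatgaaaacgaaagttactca

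Both tails hold the motif right after the first codon and differ from there on. Itga7 (ENSMUSG00000025348.9) lies on chr10:128933818-128958282, plus strand. Itga7-201 uses a 120-base exon 5 at chr10:128941822-128941941, and Itga7-202 uses a 132-base exon 5 at chr10:128941445-128941576, both wholly coding and in the extracellular part of the chain. No part of these exons is marked by capitals.
Itga7-201: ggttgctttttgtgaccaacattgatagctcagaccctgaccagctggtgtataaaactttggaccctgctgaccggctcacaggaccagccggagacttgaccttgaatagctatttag
Itga7-202: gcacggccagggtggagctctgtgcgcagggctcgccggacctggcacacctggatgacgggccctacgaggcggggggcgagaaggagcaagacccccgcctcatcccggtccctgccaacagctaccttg

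The libraries held 35813366 and 30628771 expected counts, of which the laminin and integrin genes took 81436 and 53870. Levels are in TPM, the share of a library's transcripts after adjustment for their length, which allows genes to be compared. The 7SL RNA of the signal recognition particle took 32.5% of the TPM in replicate 1 and 48.9% in replicate 2, so deposited TPM of most genes are lower in replicate 2. Within nuclear protein-coding genes, the 36 genes held 0.170% and 0.142% of the TPM. Markers of the tissue were present: Star, which imports cholesterol for steroid synthesis, stood at 5580 and 2793 TPM, and Chgb, a granule protein of chromaffin cells, at 484 and 717 TPM. The 6 genes of the pancreas acinar list, in contrast, summed to 0.20 TPM in replicate 1 and 6914 TPM in replicate 2, and the 6 liver genes to 12.2 and 96.9 TPM.

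Of the 36 genes, 21 (58.3%) stood at 1 TPM or more in both libraries, beside 52.4% of all 22015 nuclear protein-coding genes. Another 12 were under 1 TPM in both, and Itga2, Itga2b and Itgb4 passed it in 1 library only. Itgb1, Lamb1, Itga6 and Itgb5 held the top 4 places of deposited TPM, in this order, in both libraries. The same 4 genes led in the second transcript file, a separate estimate deposited for each library, but in another order. There Itgb1 stood at 143 and 112 TPM, Itga6 at 116 and 126 TPM, Itgb5 at 108 and 89.6 TPM and Lamb1 at 99.8 and 82.9 TPM. Itgb1 was thus first in replicate 1 and Itga6 in replicate 2. By deposited TPM, the places after these 4 genes were not stable: Lamc1 stood above Itgav in replicate 1 and below both Itgav and Lamb2 in replicate 2.

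**Figure D1:**
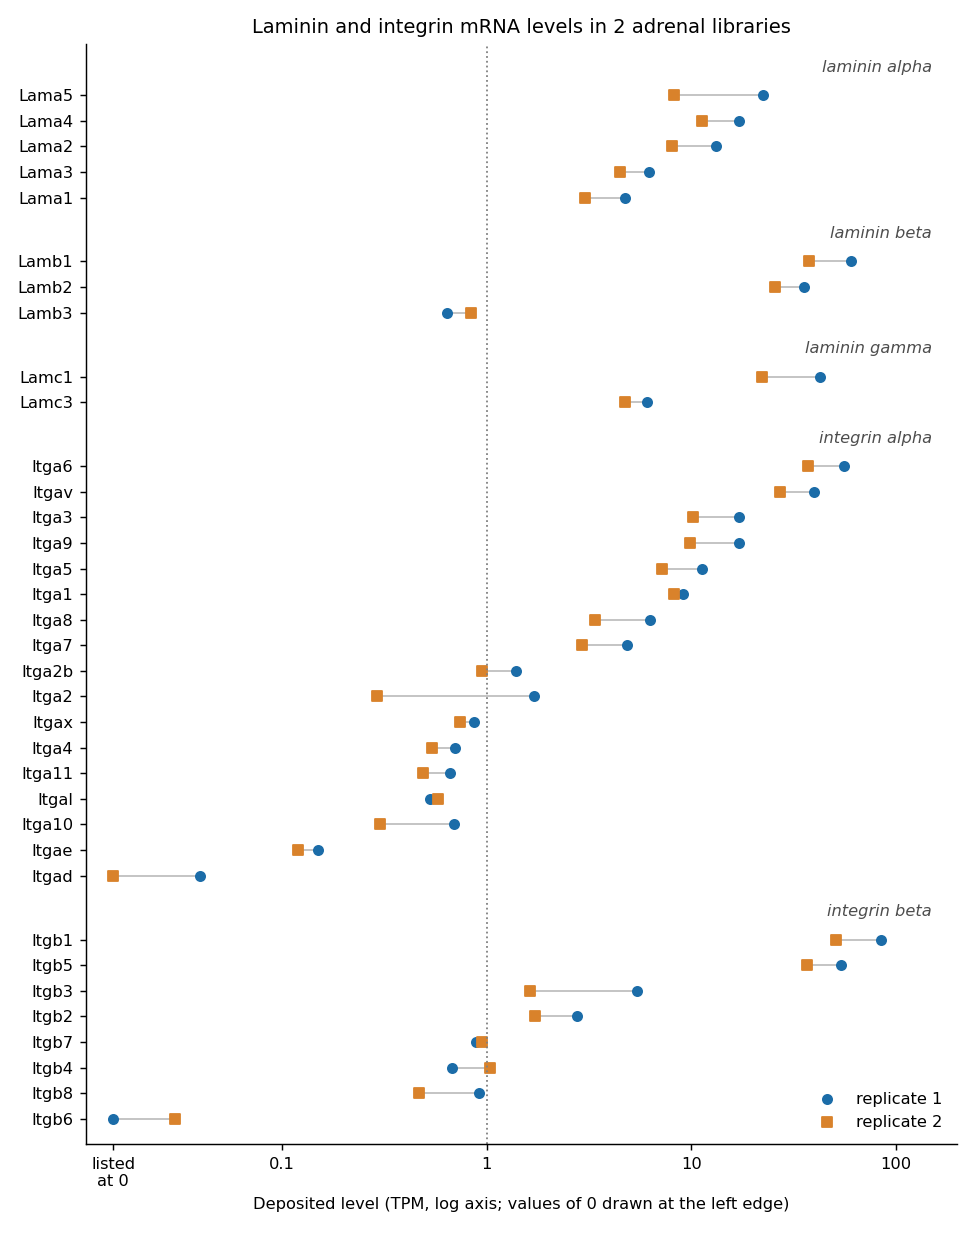
Deposited TPM of 35 of the 36 genes on a log axis, grouped by chain class and ordered by mean, with circles for replicate 1, squares for replicate 2 and a dotted line at 1 TPM. Genes listed at 0 in a library are drawn at the left edge. All 5 laminin alpha chains lie to the right of the line, while 7 of 17 integrin alpha chains lie to the left of it in both libraries.

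All 5 laminin alpha chains were at 1 TPM or more in both libraries, and no single chain led by deposited TPM. Lama4, the chain of endothelial and stromal basement membranes, stood at 17.1 and 11.3 TPM in replicates 1 and 2. Lama5, found in mature basement membranes of many epithelia and vessels, stood at 22.5 and 8.25 TPM. Lama5 was thus above Lama4 in replicate 1 and below it in replicate 2, and their shares of the summed alpha chain TPM, 29.4% ± 8.34 for Lama5 and 29.5% ± 3.68 for Lama4 (SD, n = 2), differed by less than the spread. The leader depended on the measure: in the second transcript file Lama4 held 37.1% and 35.1% and Lama5 24.7% and 17.6%, while by expected counts, which are not adjusted for length, Lama5 held 35.8% and 26.5% and Lama4 19.7% and 21.7%. Lama2, the chain of muscle and nerve sheath laminins, followed at 13.2 and 8.05 TPM. Lama3, at 6.21 and 4.51 TPM, and Lama1, the main chain of embryonic basement membranes, at 4.75 and 3.03 TPM, were lowest in each library.

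Among the beta chains, Lamb1 stood at 60.7 and 37.4 TPM and Lamb2 at 35.4 and 25.7 TPM. Lamb1 made up 60.6% ± 2.94 of the summed beta chain TPM and Lamb2 38.4% ± 2.48 (SD, n = 2), and both libraries had Lamb1 above Lamb2. Lamb1 (ENSMUSG00000002900.16) lies on chr12:31265234-31329644, plus strand, of mm10. Among the gamma chains, Lamc1 stood at 42.6 and 22.2 TPM and held 83.5% ± 3.60 of the summed TPM. Lamc3, at 6.08 and 4.76 TPM, held 14.8% ± 3.59. Lamb3, which joins Lama3 in an anchoring laminin of epithelia, was at 0.64 and 0.84 TPM, below the Lama3 level of the same library.

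A trimer holds each kind of chain once, so the summed levels of the classes were set against each other. The alpha chains summed to 63.8 and 35.1 TPM, the beta chains to 96.8 and 63.9 TPM and the gamma chains to 49.6 and 27.5 TPM. The alpha sum was 1.28 ± 0.01 times the gamma sum, and the beta sum 2.14 ± 0.27 times (SD, n = 2). Beta chains were therefore the most abundant of the laminin classes in both libraries. Counting complete coding transcripts only, a setting chosen after the data were seen, the ratios were 1.01 ± 0.04 and 2.02 ± 0.06.

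**Figure D2:**
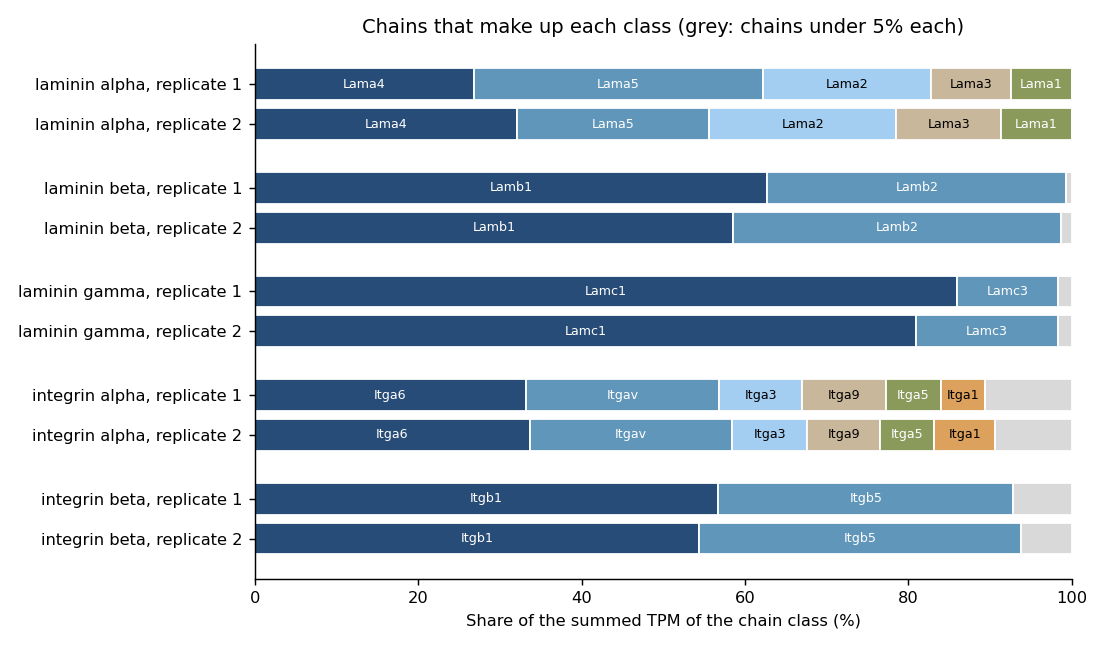
Share of each chain in the summed TPM of its class, 1 bar per library, with chains averaging under 5% joined in grey. Lamb1, Lamc1, Itga6 and Itgb1 have the widest segment of their class in both bars, while Lama5 is widest in replicate 1 and Lama4 in replicate 2.

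The laminin-binding integrin alpha chains were the most abundant group of alpha chains, at a sum of 77.8 and 50.2 TPM over 3 genes. Itga6 stood at 55.9 and 37.1 TPM and held 33.5% ± 0.33 of all integrin alpha TPM (SD, n = 2). Itga3, a receptor with a preference for laminins that carry the alpha3 or alpha5 chain, stood at 17.1 and 10.2 TPM, and Itga7, known best from muscle, at 4.84 and 2.93 TPM. Itga6 was 3.26 and 3.65 times Itga3 in the respective libraries. Both beta partners of alpha6 were measured: Itgb1 stood at 84.5 and 50.8 TPM, and Itgb4, the hemidesmosome chain, at 0.68 and 1.04 TPM. Itga6 was 82.1 and 35.6 times Itgb4 by deposited TPM, and 50.1 and 24.4 times by the posterior mean TPM of the same table.

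The Arg-Gly-Asp-binding alpha chains summed to 58.6 and 38.7 TPM. Itgav, the vitronectin receptor chain that also binds latent TGF-beta, stood at 39.6 and 27.2 TPM and held 24.1% ± 0.80 of the integrin alpha TPM. Itga5, the fibronectin receptor chain, followed at 11.3 and 7.23 TPM. Itga8, a receptor for nephronectin, stood at 6.29 and 3.39 TPM. Itga2b, the platelet chain, stood at 1.40 and 0.95 TPM, the lowest of the 4 in each library.

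The beta chains that pair with alphav, other than Itgb1, were led by Itgb5 at 53.7 and 36.9 TPM. Itgb5 alone held 37.7% ± 2.35 of the integrin beta TPM, beside 55.6% ± 1.69 for Itgb1 (SD, n = 2). The ratio of Itgav to Itgb5 was 0.737 in both libraries by deposited TPM, and 0.422 and 0.507 in the second transcript file. Itgb3 stood at 5.43 and 1.63 TPM, so that Itgb5 was 9.90 times Itgb3 in replicate 1 and 22.6 times in replicate 2. Itgb8, which binds latent TGF-beta as alphavbeta8, stood at 0.92 and 0.47 TPM. Itgb6, an epithelial chain, had 0 counts in replicate 1 and 3 in replicate 2, so its level was at the limit that a count of 3 sets.

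The collagen-binding chains summed to 12.2 and 9.28 TPM, most of it Itga1 at 9.11 and 8.20 TPM. Itga2, the other widely known collagen receptor chain, stood at 1.70 and 0.29 TPM, so that Itga1 was 5.36 times Itga2 in replicate 1 and 28.3 times in replicate 2, a value that rests on only 80 counts of Itga2 there. Itga10 and Itga11, receptor chains of cartilage and fibroblasts, were between 0.30 and 0.69 TPM in both libraries. Itga1 and Itga2 are neighbours on chromosome 13, on the minus strand and 20995 bases apart, with no protein-coding gene between them. Of the remaining alpha chains, Itga9, a receptor for tenascin and osteopontin, stood at 17.2 and 9.84 TPM, close to Itga3 in both libraries but above it in the second transcript file (50.8 and 40.5 TPM beside 31.3 and 28.2 TPM), and Itga4, its nearest relative, at 0.70 and 0.54 TPM.

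The leukocyte chains were low. Itgb2, the beta chain of Itgal, Itgad, Itgam and Itgax, stood at 2.76 and 1.72 TPM, and Itgb7, the partner of Itgae, at 0.89 and 0.95 TPM. Itgax, Itgal, Itgae and Itgad summed to 1.59 and 1.44 TPM, with Itgad at 5.18 and 0 counts. Itgam stood at 2.35 and 1.13 TPM, above each of those 4 alpha chains in both libraries. In a whole gland, fewer cells of a type and less RNA per cell cannot be told apart. The 8 macrophage markers summed to 136 and 80.0 TPM, the 5 neutrophil markers to 2.08 and 1.56 TPM and the 8 lymphocyte markers to 1.03 and 0.93 TPM.

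Part of these levels was assigned to transcript models that cannot encode a whole chain. For the 21 genes at 1 TPM or more in both libraries, the median share of complete coding transcripts, meaning coding models with an annotated start and end, was 76.0% in replicate 1 and 78.0% in replicate 2. Over the 11526 nuclear protein-coding genes at the same level the medians were 84.5% and 80.2%. The order turned in the second transcript file, with medians of 81.2% and 77.6% for the 21 genes beside 79.2% and 75.6%. In 6 of the 21 genes the mean share was under 60% in the first transcript file, and in 4 in the second, with Itga1 and Itga6 the 2 genes in common. Itgb1, Itgb3 and Lama3 had nearly all their TPM in complete coding transcripts in both libraries and both files, and Itgb5 in the first file, with 86.6% and 93.5% in the second.

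The 6 genes with a low coding share in the first file differed in the kind of transcript that took the rest. In Itgav, short coding models with an open end took 50.7% and 51.5% of the TPM, and 26.6% and 32.5% in the second file. In Itga1, retained-intron models took 46.9% and 49.6%, and 37.4% and 42.3% in the second file. In Lama2 they took 32.6% in each library, and 20.1% and 23.4% in the second file. In Lama5, short non-coding models took 49.9% and 44.5%, but in the second transcript file its full-length form Lama5-201 held 95.2% and 100% of the TPM. By expected counts, which are not adjusted for length, Lama5-201 held 4494.55 of 4697 in replicate 1 and 2008.1 of 2090 in replicate 2. In Lamb2, open-ended coding models took 26.7% and 34.8%, and 15.9% and 21.6% in the second file. In Itga6, a 2721-base non-coding model, Itga6-203, took 38.6% and 35.7%, and 31.6% and 23.5% in the second file. All non-coding models of Itga6 together took 41.0% and 43.8%, and more in the second file, at 50.9% and 61.7%. Itga8 and Itga9 were low in the second file only, at 53.7% and 44.3% complete coding for Itga8 and 47.6% and 46.1% for Itga9.

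**Figure D3:**
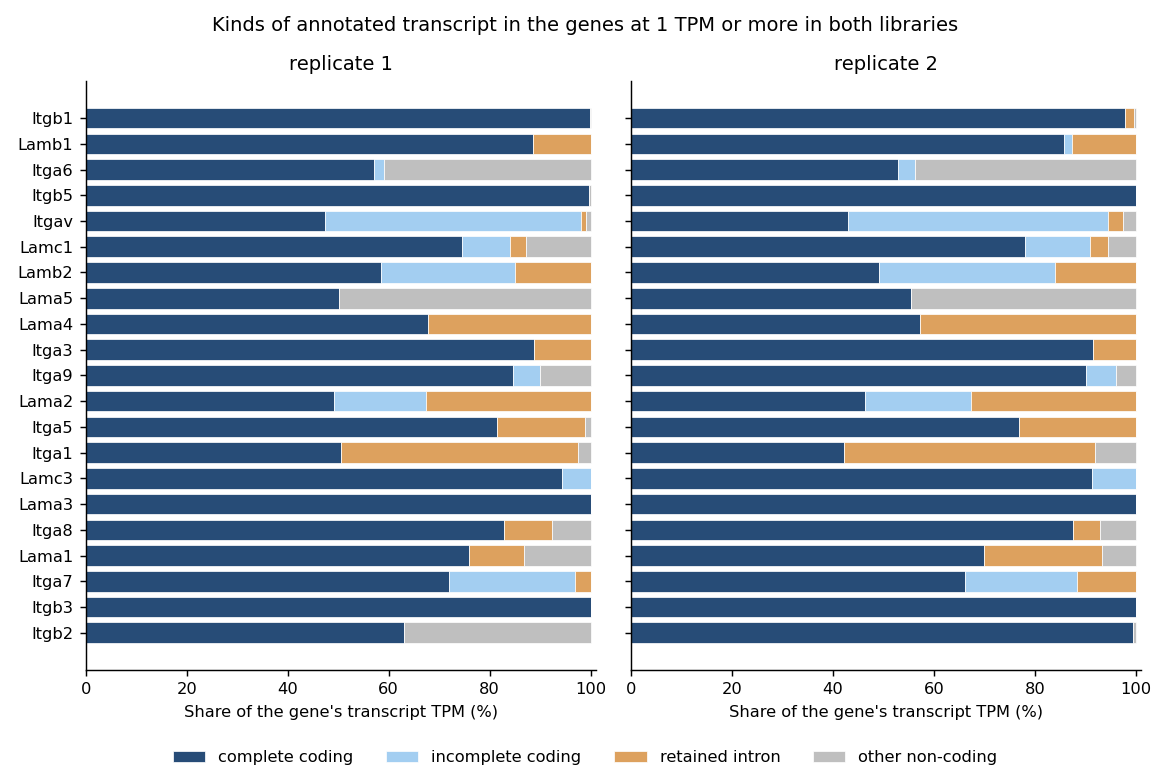
Share of transcript TPM by kind of annotated transcript in the first transcript file for the 21 genes at 1 TPM or more in both libraries, ordered by mean level, with replicate 1 on the left and replicate 2 on the right. Retained-intron models (orange) are widest in Itga1 in both panels, at 46.9% and 49.6%, and the bars of Itgb3, Itgb5 and Lama3 are almost wholly complete coding.

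Counting only complete coding transcripts changed some relations between the receptors. The integrin alpha sum was 1.15 ± 0.03 times the beta sum over all transcripts and 0.730 ± 0.004 times with complete coding transcripts (SD, n = 2). The ratio of Itgav to Itgb5 was then 0.350 and 0.317, that of Itga1 to Itga2 4.04 and 11.9, and that of Itga6 to Itgb4 49.8 and 24.6. Itga6 was 2.10 and 2.11 times Itga3 on this count, and Lamb1 2.60 and 2.54 times Lamb2. Itga6 stood at 31.9 and 19.6 TPM, below Itgb5 at 53.6 and 36.9 TPM, and remained the highest integrin alpha chain. Lama4 and Lama5 stood at 11.6 and 11.3 TPM in replicate 1 and 6.45 and 4.58 TPM in replicate 2. Lama2 and Lama3 stood at 6.46 and 6.22 TPM in replicate 1 and 3.72 and 4.51 TPM in replicate 2, where Lama3 was the higher.

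Of the 2 annotated forms of Itga6 shown above, the form with the A tail was assigned more TPM. Itga6-201 held 82.8% of the TPM of both forms in replicate 1 and 99.9% in replicate 2. In the second transcript file the same shares were 59.5% and 69.1%. The B form, Itga6-202, was assigned 5.5 and 0.01 TPM in the first file and 22.4 and 14.1 TPM in the second. The A form was thus ahead in each library and each file, with a lead that differed between the files by more than between the libraries. For alpha7 neither exon 5 led throughout: Itga7-201 held 50.4% of both forms in replicate 1 and 38.7% in replicate 2, and 56.7% and 42.9% in the second file. Lama3-201, the longer of the 2 Lama3 models at 10548 bases, held 76.8% and 74.3% of the TPM of both, and 98.8% and 100% in the second file.

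**Figure D4:**
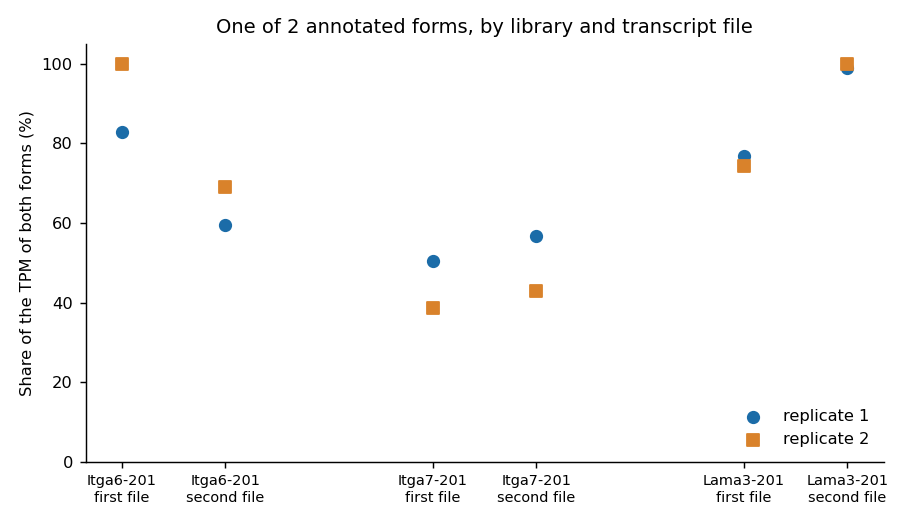
Share of 1 of 2 annotated forms in the TPM of both, for Itga6, Itga7 and Lama3, in the first and second transcript files, with circles for replicate 1 and squares for replicate 2. Itga6-201 lies above 50% at all 4 points, from 59.5% to 99.9%, and Itga7-201 between 38.7% and 56.7%.

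The libraries were then compared gene by gene with a two-sided exact binomial test on counts, with library sizes scaled by the trimmed mean of M-values (TMM). A gene was called at an adjusted p below 0.05 and a difference of at least 2-fold. The test compares these libraries and not conditions, and its intervals cover counting error only. Over 14780 genes, 6.87% were called, 1.74% higher in replicate 1 and 5.13% higher in replicate 2. Of 33 laminin and integrin genes with enough counts to test, 3 were called, a share near that background.

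Counts of Itga2 were 290 in replicate 1 and 80 in replicate 2, a 2.95-fold excess in replicate 1 after scaling (95% interval 2.31 to 3.85, adjusted p = 8.2e-20, exact binomial test). Itga2 lies on chr13:114833081-114932100 of mm10. Itgb3, the beta chain of the platelet and vitronectin receptors, gave 1090 counts in replicate 1 and 360 in replicate 2, a 2.48-fold excess in replicate 1 (2.20 to 2.80, adjusted p = 2.3e-55, exact binomial test). Itgb3 lies on chr11:104608000-104670476, plus strand. Its platelet partner Itga2b, at 71 and 49 counts, was not called, at 1.18-fold higher in replicate 1 (0.813 to 1.74). The 6 platelet markers summed to 7.37 and 5.17 TPM, with Pf4 at 6.22 and 4.33 TPM and Gp9 at 0.04 and 0.07 TPM, and their part in the Itgb3 difference was not tested.

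Lamb3 gave 30 counts in replicate 1 and 61 in replicate 2, a 2.46-fold excess in replicate 2 (1.58 to 3.98, adjusted p = 1.0e-04, exact binomial test). Lamb3 lies on chr1:193207699-193343878, plus strand. Short non-coding models took 75.0% and 63.1% of its TPM in the first file, and its complete coding transcripts stood at 0.16 and 0.31 TPM. In the second file, complete coding models took 66.2% and 57.1% of the Lamb3 TPM, and short non-coding models 0% and 32.6%. The call rests on counts, which are not adjusted for length. By expected counts, a 4867-base complete coding transcript held 26.27 of 30 in replicate 1 and 46.65 of 61 in replicate 2. Lama3, the partner of Lamb3, was not called, at a difference of 1.04-fold (0.974 to 1.11).

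The same 3 genes were called with DESeq2 size factors, where 6.58% of all genes were called, with total counts (6.68%), among nuclear protein-coding genes only (5.31%), in the second transcript file (8.65%), with no filter (7.92%) and without genes 32-fold higher in replicate 2 (6.56%). With a negative binomial test in edgeR at a fixed coefficient of variation of 0.2, which called 2.76% of all genes, Itga2 alone of the 3 was called, with adjusted p = 0.069 for Itgb3 and 0.283 for Lamb3. At a mean of at least 5 CPM, where 3.12% were called, Itga2 and Itgb3 were called and Lamb3 was not tested. With libraries scaled to the spike-ins, 37.3% of all genes were called and 23 of the 33, Itga2 and Itgb3 among them and Lamb3 not. A 1.5-fold limit called 16.6% of all genes and 7 of the 33, adding Lama5, Itgb8, Itgb4 and Itgal.

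Beside Lamb3, the 9 duct-like epithelial markers summed to 4.81 and 7.01 TPM. Of the 6 tested, 5 were on the replicate 2 side and 1 on the replicate 1 side. Called higher in replicate 2 were 3, beside 5.13% of all genes tested, namely Krt8, Krt18 and Cdh1, the last with 0 and 67 counts. Krt19 stood at 2.05 and 1.30 by deposited TPM, which was lower in replicate 2 for most genes. The pancreas genes, with 7 counts in replicate 1 and 253446 in replicate 2, were also higher in replicate 2. The part of either list in the Lamb3 difference was not tested. Itgb4, the hemidesmosome chain, gave 133 counts in replicate 1 and 186 in replicate 2, a 1.71-fold excess in replicate 2 (1.36 to 2.15), under the 2-fold limit.

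The remaining 30 genes were not called, and most differed by a small amount in 1 direction. Of the 33 tested, 27 (81.8%) had higher scaled counts in replicate 1 and 6 in replicate 2, while 48.9% of all genes tested were higher in replicate 1. With spike-in scaling, which lowers each log2 ratio by 0.89, the split was 32 and 1, the last being Lamb3. With TMM, the median log2 ratio of the 33, replicate 2 over replicate 1, was -0.27, beside 0.01 over all genes. The SD of the ratios was 0.53, beside 0.99. All 5 laminin alpha chains were on the replicate 1 side, led by Lama5 with 4697 and 2090 counts, 1.84-fold higher there (1.75 to 1.94). Lamb1, Lamc1 and Itgb1 were 1.25-fold, 1.37-fold and 1.26-fold higher in replicate 1. Itgb8 was 1.85-fold higher in replicate 1 (1.48 to 2.35), and Itgal 1.55-fold higher in replicate 2 (1.17 to 2.08).

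**Figure D5:**
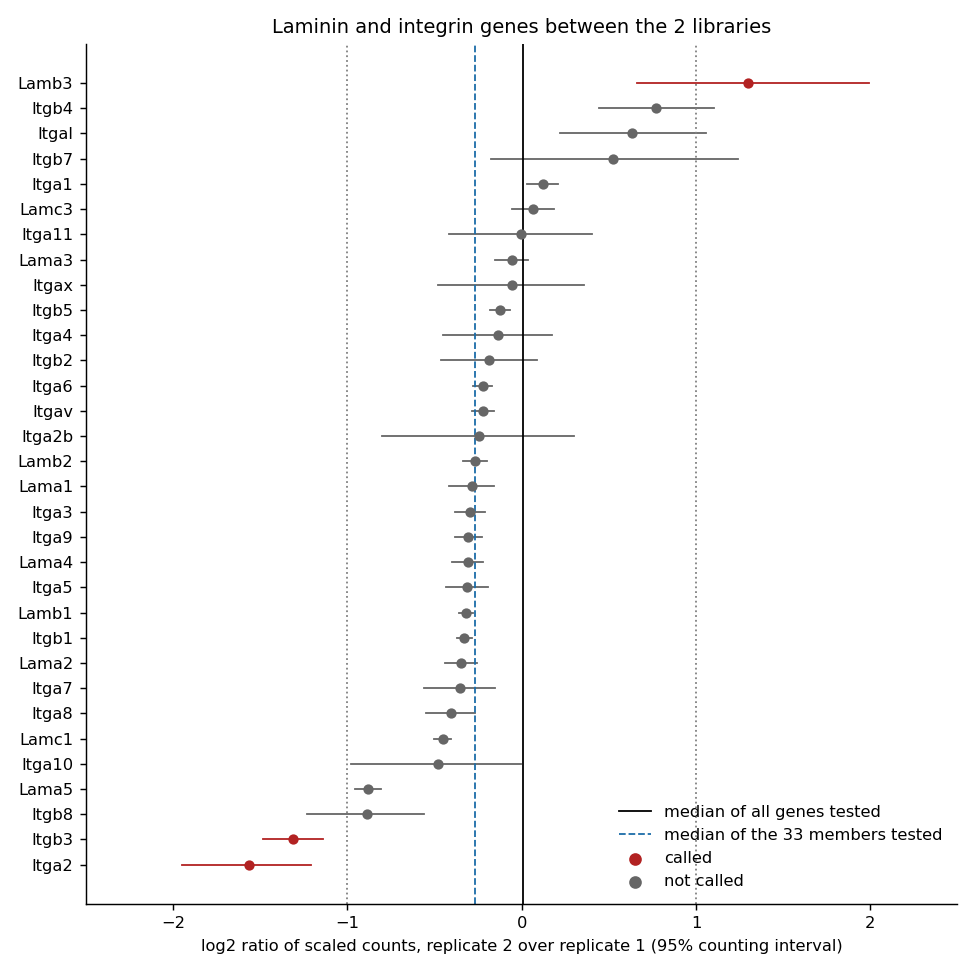
log2 ratio of scaled counts, replicate 2 over replicate 1, for 32 of the 33 genes tested, with 95% counting intervals, called genes in red, dotted lines at a 2-fold difference, a solid line at the median of all genes (0.01) and a dashed line at the median of all 33 (-0.27). Most points lie between the dotted lines and left of the solid line, with Itga2 and Itgb3 beyond the left dotted line and Lamb3 beyond the right.

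The partners of laminin in the basement membrane leaned the same way. Of 22 genes, 21 were tested and 18 had higher scaled counts in replicate 1, beside 48.9% of all genes tested. None was called, beside 6.87% of all genes, and the median log2 ratio was -0.38. The highest were Sparc, a collagen-binding matricellular protein, at 738 and 414 TPM, and the type IV collagen chains Col4a1 at 207 and 126 TPM and Col4a2 at 91.2 and 52.2 TPM. Col4a1 was 1.37-fold higher in replicate 1 (1.35 to 1.39), the same size of difference as Lamc1. The 10 capsule and stroma markers had a median log2 ratio of -0.37 and the 10 endothelial markers -0.16, with none called, and their part in the lean of the laminins was not tested.

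Receptors for laminin other than integrins, with the enzymes that glycosylate dystroglycan, did not lean. Of 17 tested genes, 9 were higher in replicate 1 and 8 in replicate 2, and the median log2 ratio was -0.003. None was called, beside 6.87% of all genes. The heparan sulphate proteoglycan Sdc3 stood at 88.9 and 64.2 TPM, Dag1, the dystroglycan gene, at 43.6 and 32.3 TPM, and Sdc4 at 43.5 and 29.6 TPM. By deposited TPM, Dag1 was therefore above each of Itga3, Itga5 and Itga9 and below Itga6 in both libraries.

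Among 25 genes for other integrin ligands, 23 were tested, 2 were called higher in replicate 1 and 5 in replicate 2. Over all genes tested, 1.74% were called higher in replicate 1 and 5.13% in replicate 2. The highest were Mfge8, which bridges alphav integrins to dying cells, at 91.1 and 60.9 TPM, Spp1, or osteopontin, at 38.0 and 18.4 TPM, and Fn1, or fibronectin, at 34.3 and 19.6 TPM. Thbs1 was 3.85-fold higher in replicate 1 (3.55 to 4.18), and Ccn1, a secreted ligand of alphav integrins, 2.49-fold (2.05 to 3.07). The fibrinogen genes Fga, Fgb and Fgg, made mainly by the liver, were 6.76-fold, 9.76-fold and 6.63-fold higher in replicate 2, and Vtn, also a liver product, 7.21-fold (5.29 to 10.2). Alb, the liver marker with the highest level, stood at 7.24 and 51.4 TPM. The fifth gene called higher in replicate 2 was Cdh1, given above.

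Integrin-linked adhesion genes, a list of linkers to actin and of membrane partners such as tetraspanins, were widely present. Of 31 genes, 29 stood at 1 TPM or more in both libraries. None of 30 tested genes was called, beside 6.87% of all genes. Higher in replicate 1 were 21, beside 48.9% of all genes, and the median log2 ratio was -0.22. The highest were the tetraspanins Cd81, at 208 and 131 TPM, and Cd151, a partner of laminin-binding integrins, at 126 and 77.1 TPM, and Tns1, a focal adhesion protein, at 124 and 112 TPM. Tns1 differed from these in direction with TMM scaling, at 1.18-fold higher in replicate 2 (1.15 to 1.20), a direction that the spike-in shift turns. Of the 5 related genes outside the naming rule, none of 3 tested was called, with Itgbl1 at 1.12 and 0.58 TPM and Itgb3bp, a kinetochore protein, at 1.54 and 0.90 TPM.

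Reads were shared with other genes in few cases. Expected counts were whole numbers, within 0.01, for 30 of the 36 genes. The exceptions, where some reads were split with other entries, were Itga6, Itgb5, Itga1, Itgax, Itga10 and Itgad. Itga1, Itga10 and Itgad also overlap an exon of another annotated gene on the same strand, so their counts are the less certain ones. The ratios of Itga1 to Itga2 above rest in part on such counts.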

How the data were processed

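Ribosome-depleted directional libraries were quantified on mm10 and GENCODE M21 from a transcriptome alignment, per the labels and the deposited file notes. The aligner and counting programs: not given in the sources used here. The gene table and first transcript table hold expected counts deposited by the authors in the column layout of RSEM, and the second transcript table holds estimated counts in that of kallisto. TPM, as deposited, cover genes, spike-ins and tRNA together and share 1 total per library, so an abundant RNA lowers all others; 26345 entries that name no gene were left out. From these, class sums, shares and transcript shares were computed as mean ± SD over 2 libraries. Expected counts were rounded, 0.5 was added for ratios, and genes averaging 1 CPM or more were scaled by TMM (edgeR 4.0.16, R 4.3.3) and compared by an exact binomial test (scipy 1.17.1) with Benjamini-Hochberg adjustment over all genes. The code was tested on simulated data. Every member entered the sums and counts, 3 fell under the filter of the test, and 1 is not reported singly here; of each pathway list the 3 highest genes and those called were named, and of each marker list the highest gene. Members and lists were chosen with earlier results of these data known. Alternatives were other scalings (DESeq2 1.42.0 among them), filters, thresholds and the second table; complete coding transcripts, and the removal of genes at least 32-fold higher in replicate 2, were chosen after seeing the data.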

Additional observations from a re-analysis of the deposited data

How the results depend on the processing

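Scaling to spike-ins moved the median log2 ratio of all genes by -0.89 and called 23 of the 33 tested, all higher in replicate 1, and 5516 of all genes. A 1.5-fold limit called 7 and 2454, edgeR's exact test 1 and 408, and a mean of 5 CPM 2 and 346, against 3 and 1015; no filter called 2116 of all genes. The calls over all genes split 257 higher in replicate 1 to 758 in replicate 2, 5279 to 237 with spike-ins and 164 to 182 at 5 CPM. DESeq2 size factors moved the median of all genes by -0.10, placing 28 members rather than 27 on the replicate 1 side. Other settings placed fewer there. The split was 26 to 7 among nuclear protein-coding genes only and with 2 added to counts, and 25 to 8 without genes 32-fold higher in replicate 2. Relative to nuclear protein-coding TPM, 33 members passed 1 TPM rather than 21. This change of unit raises all coding genes of a library by the same factor, and their share on that scale was not computed. The share of Itga6 was 39.5% in the second file, 28.2% by expected counts, 32.5% by posterior mean TPM and 29.6% by complete coding transcripts; that of Itgb1 52.3% in the second file and 59.4% by expected counts; that of Lama4 36.1% and 20.7%; and that of Lamb1 64.8%, 71.9% and, by complete coding transcripts, 71.7%. The alpha to gamma ratio was 1.15, 1.27, 1.30 and 1.01 in the same order as for Itga6, the beta to gamma ratio 1.57 by expected counts, and the median share of the leading transcript 73.9% in the second file against 74.4%. The cause of these shifts was not tested. With 1 library left out, members at 1 TPM ran from 22 to 23, Itga6 from 33.2% to 33.7%, Itgb1 from 54.4% to 56.8%, Lama4 from 26.9% to 32.1%, Lamb1 from 58.5% to 62.7%, Lamc1 from 80.9% to 86.0%, alpha to gamma from 1.28 to 1.29, beta to gamma from 1.95 to 2.33 and the leading transcript from 74.3% to 74.5%. Leaving out a library was not possible for the comparison of the libraries, which needs both. No paired analysis was possible because the samples form 1 group. Genes under about 100 counts, Lamb3 and Itga2b among them, have wide counting intervals.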

Other observations

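Other marker lists not set beside a laminin or integrin gene also differed in direction between the libraries, with TMM scaling. The 6 steroidogenic genes were all on the replicate 1 side, with a median log2 ratio of -0.42, and Nr5a1, the nuclear receptor that drives steroidogenic genes, was called at 2.27-fold (2.20 to 2.34). Of the 6 chromaffin genes 5 were on the replicate 2 side, with a median of 0.46 and none called, and the spike-in shift of -0.89 turns that direction. The 9 pericyte and smooth muscle markers, led by Tagln at 54.8 and 20.2 TPM, split 4 to 4 among the 8 tested, with none called. Of the 7 Schwann and sustentacular markers, led by S100b at 5.38 and 3.61 TPM, only Erbb3 was called, at 2.33-fold higher in replicate 2 (1.89 to 2.89). Of the 6 adipocyte genes, led by Cfd at 448 and 256 TPM, only Ucp1, the thermogenic uncoupling protein of brown fat, was called, at 2.59-fold higher in replicate 2 (2.53 to 2.66). The highest markers of the lists given above were Col3a1 for stroma, at 126 and 62.8 TPM, Plvap for endothelium, at 61.4 and 38.9 TPM, Lyz2 for macrophages, at 55.6 and 29.9 TPM, Csf3r for neutrophils, at 0.66 and 0.55 TPM, Cd3d for lymphocytes, at 0.44 and 0.12 TPM, and Ctrb1 for pancreas, at 0.11 and 2563 TPM.

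Itgax and Itgad, 3.72 kb apart on chromosome 7, were both under 1 TPM in both libraries.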
